A study of Mus musculus with 42 samples.

Results

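8 genes for adhesion molecules that endothelial cells show to passing leukocytes were followed through the carotid intima and through cultured endothelial cells: Sele (E-selectin), Selp (P-selectin), Icam1, Vcam1, Icam2, Pecam1 (CD31), F11r (JAM-A) and Cd34. They were taken by name from a table of 21674 mouse genes, and all 8 passed the filter on low counts in all 13 comparisons. Flow was lowered in the left carotid by partial ligation, and RNA was flushed from the intima and pooled from 3 to 5 arteries per library. At 48 hr, male C57BL/6J mice of 6 to 7 weeks gave 3 low-flow pools (a, b and c), 3 high-flow pools from the contralateral artery (d, e and f) and 3 sham-operated pools (g, h and i), all untreated. In further mice, platelets were depleted with anti-GPIba, granulocytes with anti-Gr1 or macrophages with clodronate liposomes, and IgG or PBS liposomes served as controls, with 2 libraries for each at low flow and for each control at high flow, and 2 single low-flow libraries of 100 bp reads came from PBS and clodronate liposomes. At 7 days, males and females of 2 to 7 months gave 3 low-flow and 2 high-flow libraries each for the EC-KO, in which Rbfox2 is deleted, and for controls. Both genotypes carried Rbfox2 lox/lox and the reporter Rosa26-mTmG, and the EC-KO also carried Cdh5(PAC)-CreERT2, which the controls lacked. The Cre is driven by the Cdh5 promoter, so that the deletion was directed to endothelial cells. 4 cultures of a conditionally immortalized (TetOn-SV40) aortic endothelial line, left untreated or given 10% plasma, platelets with macrophages or all 3, gave 1 library each. So did 3 primary aortic endothelial cultures, of eGFP+ cells, of the Rbfox2 control and of the Rbfox2 EC-KO.

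Leukocytes leave the blood in steps. Selectins on the vessel wall slow them to a roll, immunoglobulin-family ligands of integrins such as ICAM-1 and VCAM-1 hold them, and junctional proteins such as PECAM-1, ICAM-2 and JAM-A take part as they pass between the endothelial cells. Sele is made on demand in activated endothelium, whereas P-selectin is also stored in granules, and disturbed flow, as at arterial branches and on the inner side of curves, is known to raise several of these molecules. CD34 is a sialomucin of endothelium and of blood progenitors.

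On NCBIM37, the assembly of mm9, all 8 are protein-coding genes, and 4 of the 8 lie on chromosome 1. Sele, at chr1:165978365-165987808, and Selp, at chr1:166045395-166080157, lie 57.6 kb apart on the plus strand. F11r, at chr1:173367666-173394734, and Cd34, at chr1:196765015-196787486, lie farther along the same chromosome on the plus strand. Icam1, at chr9:20820404-20833241, is on the plus strand and Vcam1, at chr3:115812938-115832606, on the minus strand. Icam2, at chr11:106238970-106249389, and Pecam1, at chr11:106515531-106611942, lie 266 kb apart on the minus strand. Proximal promoters of Sele, Selp and Icam1 are printed here as the 250 bases before the annotated start, 5′ to 3′ on the plus strand, from the RefSeq table of GRCm38.p6, because Sele and Selp are neighbours whose levels differed with flow by unequal amounts, and Icam1 is another gene of activated endothelium. Capitals mark matches, on either strand, to GGNNNTTCC, the core letters of many sites of the inflammatory factor NF-kB, and to TATAAA. They lie at chr1:164047984-164048233 for Sele, chr1:164115014-164115263 for Selp and chr9:21015690-21015939 for Icam1.
Sele: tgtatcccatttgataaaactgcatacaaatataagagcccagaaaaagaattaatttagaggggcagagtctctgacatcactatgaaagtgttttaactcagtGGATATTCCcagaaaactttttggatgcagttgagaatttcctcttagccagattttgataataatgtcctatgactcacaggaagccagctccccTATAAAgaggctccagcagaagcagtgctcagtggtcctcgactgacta
Selp: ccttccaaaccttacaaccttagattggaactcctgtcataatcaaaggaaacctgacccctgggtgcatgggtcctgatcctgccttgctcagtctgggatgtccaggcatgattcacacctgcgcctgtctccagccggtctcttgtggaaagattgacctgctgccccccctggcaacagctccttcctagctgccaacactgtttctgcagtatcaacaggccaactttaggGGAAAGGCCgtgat
Icam1: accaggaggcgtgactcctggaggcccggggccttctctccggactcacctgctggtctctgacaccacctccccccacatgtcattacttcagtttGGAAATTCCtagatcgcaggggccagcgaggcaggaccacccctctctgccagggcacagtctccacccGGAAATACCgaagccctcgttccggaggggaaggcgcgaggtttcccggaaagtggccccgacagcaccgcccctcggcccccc

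Sele held 1 match to GGNNNTTCC, GGATATTCC, beginning 145 bases before the start, and the TATAAA began 49 bases before it. Icam1 held 2, GGAAATTCC beginning 153 bases before the start and GGAAATACC, a match on the opposite strand, 84 bases before it. Selp held 1, GGAAAGGCC on the opposite strand, 14 bases before the start. Of 32851 RefSeq promoters of this length, 15.7% held GGNNNTTCC and 12.4% held TATAAA. The window of F11r and that of Cd34 held neither motif, and 5 of the 8 genes were matched in the table. A match of letters describes the sequence and does not show that a factor binds there.

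Levels are given as FPKM, fragments per kilobase of effective gene length and per unit of library size, scaled by TMM, which divides each library by a factor estimated from the bulk of its genes. Counts on genes ranged from 4064477 to 19035957 in the 35 carotid libraries and from 4989843 to 16394043 in the 7 cultures. Low-flow pools a and b stood apart, with TMM factors of 0.442 and 0.441 against 0.835 to 1.21 in the other 33 carotid libraries. Scaling by total counts alone therefore moved the median of all genes by -0.62 on the log2 scale for low against high flow and by -0.67 against sham, and calls and directions of the 8 genes that changed without these pools are given beside the values. Differences are log2 fold-changes by edgeR's quasi-likelihood test, fitted over all genes, with Benjamini-Hochberg adjusted p under 0.05 as the threshold. The p-values measure the spread between pools. In flushed tissue, fewer cells of a type and less RNA per cell cannot be told apart. The 12 endothelial marker genes, which include none of the 8, had a summed level of 1326 to 6035 FPKM in the carotid libraries and 1470 to 2554 FPKM in the primary cells, against 34.5 to 41.7 FPKM in the cell line. Smooth muscle markers were also high in the primary cells, with sums of 2064 FPKM in the eGFP+ cells, 3206 FPKM in the Rbfox2 control and 2465 FPKM in the Rbfox2 EC-KO.

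**Figure D1:**
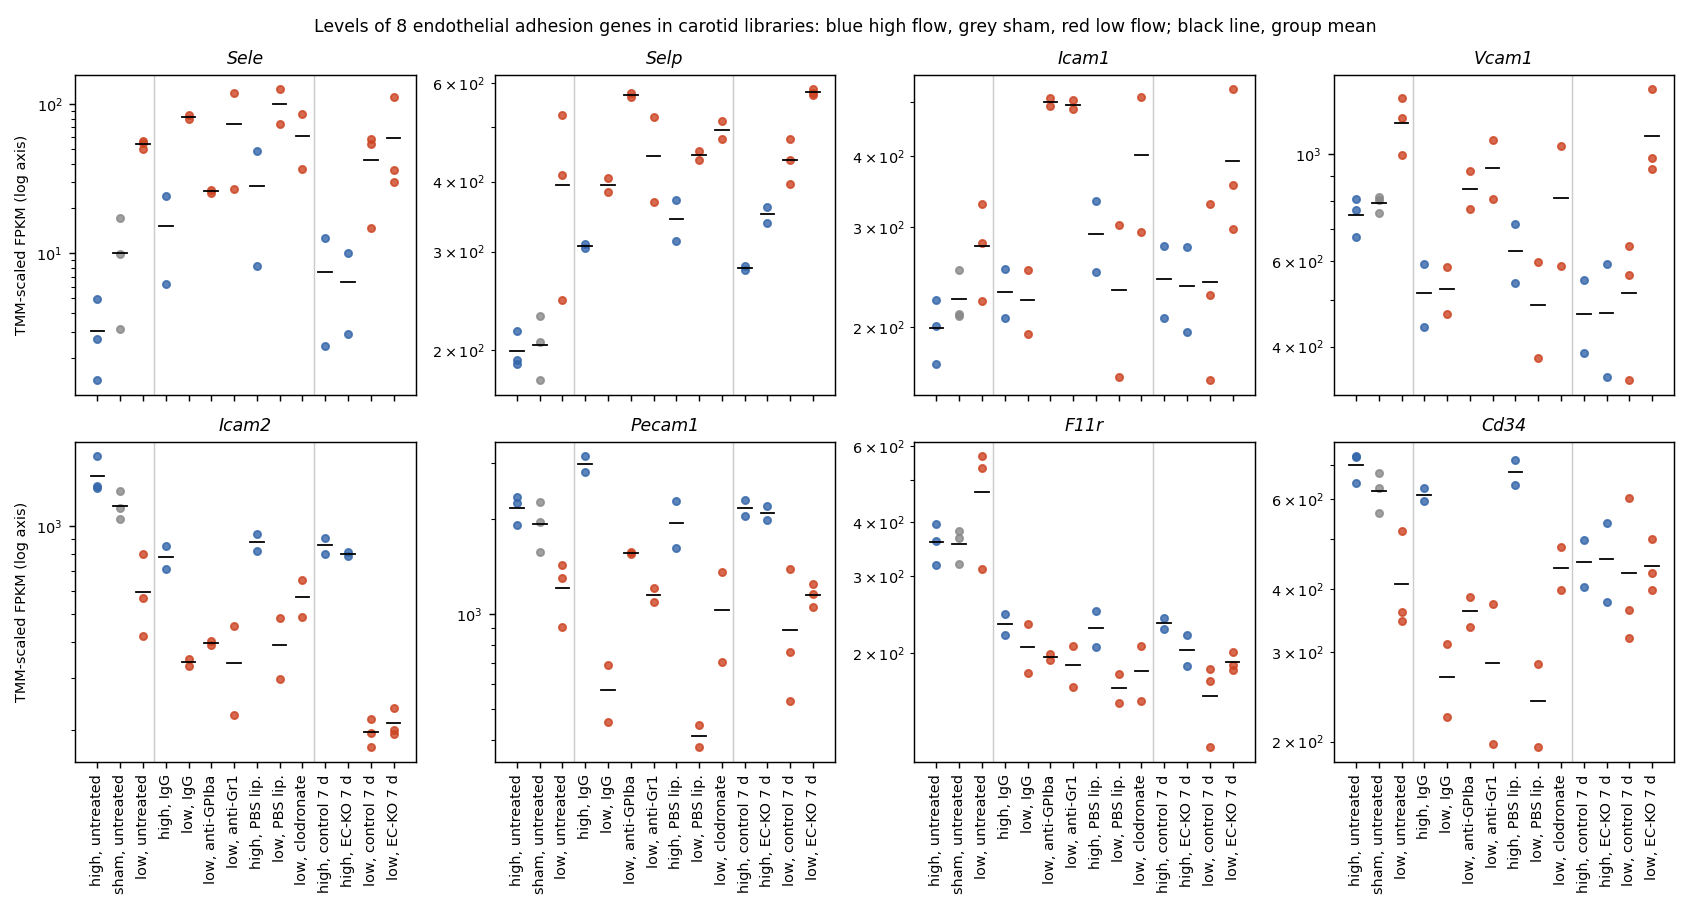
TMM-scaled FPKM of the 8 genes, on log axes, in each carotid library by group, with 1 point per library and a bar at the mean of each group. Sele spread over the widest range, from 1.42 to 126 FPKM, whereas Icam1 stayed between 132 and 526 FPKM.

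Of the 2 selectins, E-selectin had the largest flow difference of the set in the untreated arteries. Sele had 50.3, 56.9 and 54.8 FPKM in low-flow pools a, b and c and 1.42, 4.92 and 2.68 FPKM in high-flow pools d, e and f. Sham pools g, h and i had 9.85, 3.1 and 17.2 FPKM. The low-flow pools lay within a narrow band above all others, and the sham pools overlapped the high-flow pools. Scaled by total counts alone, the low-flow pools had 22.2, 25.1 and 50.5 FPKM, no longer in a narrow band but still above all others. Sele rose 18.0-fold at low against high flow (log2 4.17, standard error 0.34, edgeR adjusted p = 6.1e-06) and by a log2 of 2.42 against sham (standard error 0.48, adjusted p = 0.00645). Without pools a and b, an alternative chosen after seeing the data in which pool c alone is assumed to vary like the other groups, the log2 was 4.25 (adjusted p = 0.000145) against high flow and 2.48 (adjusted p = 0.108) against sham. Between high flow and sham the log2 was -1.76 (adjusted p = 0.424), and it was -2.19 (adjusted p = 0.0487) when sham pool h was left out.

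P-selectin was already present without low flow and moved less. Selp had 411, 526 and 246 FPKM at low flow and 192, 189 and 217 FPKM at high flow. In sham pools it had 207, 177 and 229.9 FPKM. All low-flow pools were above the high-flow and sham pools, pool c by a small margin. Selp rose, compared with high flow, by a log2 of 1.04 (standard error 0.32, edgeR adjusted p = 0.0228), and compared with sham by 0.95 (standard error 0.33, adjusted p = 0.0472). The call against high flow was lost without any 1 of the pools a, b, d, e or f (adjusted p = 0.0564 to 0.0994), with scaling by total counts (log2 0.27, adjusted p = 0.498) and without pools a and b together (log2 0.42, adjusted p = 0.224), and over 13 alternatives the adjusted p ranged from 0.000358 to 0.498. Against sham it was lost without any 1 of the pools a, b, g, h or i (adjusted p = 0.073 to 0.155), without pools a and b together (log2 0.32, adjusted p = 0.491), with scaling by total counts (0.14, adjusted p = 0.772) or by endothelial markers (0.63, adjusted p = 0.28) and with no filter on low counts (0.94, adjusted p = 0.0503). Endothelial marker scaling also ended the call against high flow (0.79, adjusted p = 0.0632). The ratio of Sele to Selp within a library, which no scaling can move, was 0.108 to 0.223 at low flow, 0.00741 to 0.0261 at high flow and 0.0175 to 0.0747 in sham arteries.

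The integrin ligands Icam1 and Vcam1 did not pass edgeR's test in the untreated arteries. Icam1 had 222, 329.7 and 281 FPKM at low flow, 223, 201 and 172 FPKM at high flow and 209, 252 and 211 FPKM in sham pools. Low-flow pool a lay below high-flow pool d. Compared with high flow, the log2 fold-change was 0.55 (standard error 0.26, edgeR adjusted p = 0.111), and compared with sham 0.32 (adjusted p = 0.337), and with scaling by total counts the first became -0.07. Vcam1 had 1305, 1187 and 993 FPKM at low flow, 766, 808 and 674 FPKM at high flow and 816, 754 and 803 FPKM in sham pools. Its low-flow pools were above all others, but neither the log2 of 0.69 for high flow (standard error 0.37, adjusted p = 0.152) nor that of 0.56 for sham (adjusted p = 0.259) passed the threshold. Leaving out pool c gave 0.79 for Vcam1 against high flow (adjusted p = 0.00363), and scaling by total counts gave 0.02. With DESeq2 both genes passed against high flow (Icam1 0.59, adjusted p = 0.0378, and Vcam1 0.74, adjusted p = 0.00126), and Vcam1 passed against sham (0.61, adjusted p = 0.0072).

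Icam2 and Pecam1, genes of endothelial junctions, lay on the other side, and of these Icam2 passed the test. Icam2 had 802, 567 and 418 FPKM at low flow, 1738, 1374 and 1350 FPKM at high flow and 1317, 1152 and 1058 FPKM in sham pools. The low-flow pools were below all others. Icam2 fell, with a log2 of -1.27 compared with high flow (standard error 0.32, edgeR adjusted p = 0.00842) and of -0.98 compared with sham (standard error 0.3, adjusted p = 0.0315). The call against high flow stood in 13 of 13 alternatives, and that against sham was lost without any 1 of the pools b, g, h or i (adjusted p = 0.064 to 0.112) and without pools a and b (-1.44, adjusted p = 0.0649). Pecam1 had 1429, 1300 and 909.8 FPKM at low flow and 1918, 2355 and 2246 FPKM at high flow. In sham pools it had 1951, 2264 and 1572 FPKM. Its low-flow pools were below the others, and the log2 of -0.79 (standard error 0.45, adjusted p = 0.171) did not pass. It passed with total-count scaling (-1.51, adjusted p = 3.81e-08), without pools a and b (-1.14, adjusted p = 0.00758), without pool c (-0.62, adjusted p = 0.0177), with DESeq2 (-0.73, adjusted p = 0.00826) and with endothelial marker scaling (-0.97, adjusted p = 0.00568). The ratio of Vcam1 to Pecam1 within a library was 0.913 to 1.09 at low flow, 0.3 to 0.399 at high flow and 0.333 to 0.511 in sham pools.

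F11r had 568, 533 and 312 FPKM at low flow, 396, 363 and 319 FPKM at high flow and 381, 368 and 319.6 FPKM in sham pools. Pool c lay with the high-flow pools, and the log2 of 0.45 against high flow (edgeR adjusted p = 0.257) became -0.3 with total-count scaling, -0.08 without pools a and b and 0.67 without pool c (adjusted p = 0.00938). Its log2 against sham was 0.41 (adjusted p = 0.305), and -0.14 without pools a and b. Cd34 had 520.1, 360.4 and 345 FPKM at low flow, 725, 645 and 729 FPKM at high flow and 632, 677 and 563 FPKM in sham pools. The low-flow pools were the lowest, and the log2 was -0.72 for high flow (standard error 0.31, adjusted p = 0.0789) and -0.61 for sham (adjusted p = 0.13). Without pools a and b the log2 of Cd34 against high flow was -0.9 (adjusted p = 0.0238), without pool c -0.62 (adjusted p = 0.0267) and with total-count scaling -1.4 (adjusted p = 2.15e-05). It also passed with DESeq2 (-0.67, adjusted p = 0.0129), with endothelial marker scaling (-0.85, adjusted p = 0.0315) and with the 3 untreated groups in 1 fit (-0.71, adjusted p = 0.0324).

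In all, 3 of the 8 genes passed against high flow, where 46.2% of 11236 genes did. Of the 8, 2 were higher and 1 was lower, against 23.6% of all genes higher and 22.6% lower. Against sham 3 of 8 passed, where 40.3% of 11164 genes did, and these edgeR shares are near those of all genes. DESeq2 called 7 of 8 against high flow and 4884 of all genes. Without pools a and b edgeR called 4 of 8 against high flow (Sele, Icam2, Pecam1 and Cd34), where it called 2731 of all genes. Between high flow and sham, edgeR called 0 of 8 (1 by unadjusted p under 0.05), and DESeq2 called 0, where edgeR called 0.0% of 11030 genes (868 before adjustment at p under 0.05, and 106 by DESeq2). Low flow, high flow and sham are compared on shared pools, so the 3 comparisons are not independent. Markers of other cells moved with flow in the same pools. The 4 leukocyte genes, all detected, summed to 629 to 1591 FPKM at low flow, 14.1 to 28.7 FPKM at high flow and 39.6 to 140.4 FPKM in sham pools. The 11 macrophage genes, all detected, summed to 2302 to 7893 FPKM at low and 84 to 186 FPKM at high flow, and the 7 smooth muscle genes, all detected, to 2927 to 4069 FPKM and 344 to 419 FPKM. The 8 platelet genes, whose cells also hold Selp, Pecam1 and F11r transcripts, summed to 48.5 to 90.1 FPKM at low and 36.0 to 89.6 FPKM at high flow, and the 12 endothelial genes to 2287 to 6035 FPKM and 2636 to 3502 FPKM. The 7 fat-cell genes went the other way, with sums of 13 to 19 FPKM at low and 162 to 1745 FPKM at high flow, and the 6 fibroblast genes summed to 50.5 to 171 FPKM and 113 to 353 FPKM. The part of these cells in the levels of the 8 genes was not tested.

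**Figure D2:**
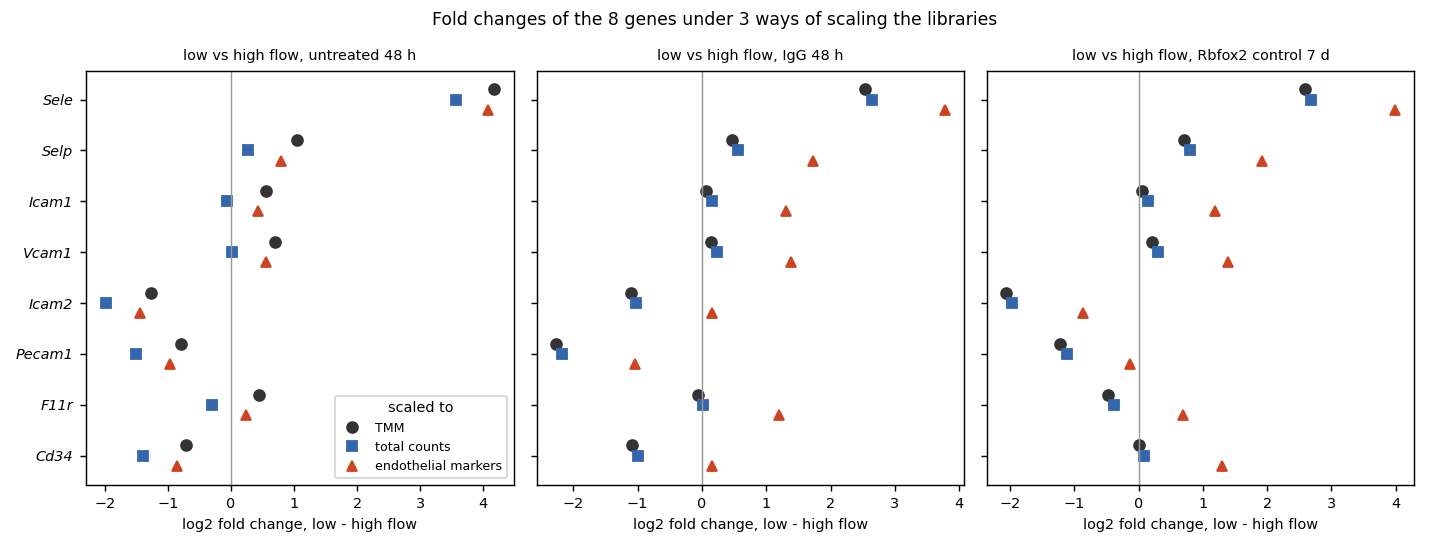
Log2 fold-change of the 8 genes at low against high flow, in untreated arteries at 48 hr, with IgG at 48 hr and in controls at 7 days, with libraries scaled by TMM (circles), total counts (squares) or endothelial markers (triangles). In untreated arteries Sele had 4.17, 3.57 and 4.08 and Icam2 -1.27, -1.99 and -1.44 in that order, whereas Icam1 had 0.55, -0.07 and 0.43.

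The flow comparison was repeated in mice given control IgG or control PBS liposomes, with 2 libraries per group. The low-flow libraries came from a January sequencing run and the high-flow libraries from a June run, so flow and run cannot be told apart here. Sele had 84.5 and 79.3 FPKM at low flow and 6.22 and 24.2 FPKM at high flow with IgG. With PBS liposomes it had 126 and 73.7 FPKM at low flow and 8.27 and 48.7 FPKM at high flow. Both low-flow libraries were above both high-flow libraries in each treatment. Sele rose by a log2 of 2.54 with IgG (standard error 0.9, edgeR adjusted p = 0.0429), and the log2 was 1.91 with PBS liposomes (standard error 0.88, adjusted p = 0.112). The IgG call was lost without low-flow replicate 1 or 2 or high-flow replicate 1 (log2 1.88 without the last), and with PBS liposomes the log2 was 3.68 without high-flow replicate 2. Here and below, a group of 2 with 1 left out keeps 1 library, and its spread is taken from the other groups of the fit.

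Selp had 384 and 406 FPKM at low and 304 and 309 FPKM at high flow with IgG, and 438 and 454 FPKM at low and 314 and 371 FPKM at high flow with PBS liposomes. Its log2 of 0.47 in each treatment did not pass (edgeR adjusted p = 0.0865 and 0.0961). Selp passed in 2 of 11 alternatives with IgG and in 1 of 11 with PBS liposomes. Icam1 had 252 and 194 FPKM at low and 253 and 207 FPKM at high flow with IgG, and 302 and 163 FPKM against 249.8 and 334 FPKM with PBS liposomes. Vcam1 had 583 and 468 FPKM at low and 438 and 592 FPKM at high flow with IgG, and 598 and 379 FPKM against 540.3 and 718 FPKM with PBS liposomes. Both genes overlapped between flows in both treatments, with log2 fold-changes from -0.27 to 0.14 and adjusted p from 0.529 to 0.887. With libraries scaled to the 12 endothelial markers, 3 of these genes passed with IgG, Icam1 at 1.31 (adjusted p = 0.00533), Vcam1 at 1.38 (adjusted p = 0.00581) and Selp at 1.72 (adjusted p = 0.000835), and Selp passed with PBS liposomes at 1.01 (adjusted p = 0.0273). That scaling moved the median of all genes by 1.24 with IgG, where edgeR called 8124 of all genes, and by 0.55 with PBS liposomes.

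Icam2, Pecam1 and Cd34 were lower at low flow in both sets of mice. Pecam1 had 690.2 and 456 FPKM at low and 2810 and 3161 FPKM at high flow with IgG, and 444 and 378 FPKM against 2281 and 1614 FPKM with PBS liposomes. Pecam1 fell, with a log2 of -2.27 with IgG (standard error 0.34, edgeR adjusted p = 0.00114) and of -2.15 with PBS liposomes (standard error 0.34, adjusted p = 0.00128), and both calls stood in 11 of 11 alternatives, with smaller differences of -1.04 and -1.58 when libraries were scaled to endothelial markers. Icam2 had 350.2 and 331 FPKM at low and 858 and 714 FPKM at high flow with IgG, and 298 and 485 FPKM against 823 and 940.1 FPKM with PBS liposomes. All low-flow libraries were below the high-flow ones. Icam2 fell, with a log2 of -1.1 with IgG (adjusted p = 0.0174) and of -1.07 with PBS liposomes (adjusted p = 0.0219). The IgG call was lost without low-flow replicate 1 or 2 or high-flow replicate 1 (adjusted p = 0.0634 to 0.107), and the PBS call without low-flow replicate 1 (-0.75, adjusted p = 0.162) or either high-flow replicate (adjusted p = 0.0779 and 0.0811).

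Cd34 had 312 and 224 FPKM at low and 631 and 595 FPKM at high flow with IgG, and 195 and 285 FPKM against 639 and 718 FPKM with PBS liposomes. The low-flow libraries were again the lower ones. Cd34 fell, with a log2 of -1.09 with IgG (standard error 0.3, edgeR adjusted p = 0.0149) and of -1.4 with PBS liposomes (standard error 0.3, adjusted p = 0.0054). It lost the first call without low-flow replicate 2 (adjusted p = 0.133) or high-flow replicate 1 (adjusted p = 0.0647) and the second without low-flow replicate 1 (adjusted p = 0.0515). F11r had 180 and 233 FPKM at low and 246 and 219.8 FPKM at high flow with IgG, and 153 and 179 FPKM against 206 and 249 FPKM with PBS liposomes, with adjusted p of 0.827 and 0.213. In all, 4 of 8 genes passed with IgG, where 40.5% of 13401 genes did, and 3 of 8 with PBS liposomes, where 35.0% did. When libraries were scaled to the 12 endothelial markers, the median of all genes moved by 1.24 with IgG. The log2 of Icam2 and Cd34 there became 0.15 each, no longer called, and that of F11r 1.19, which passed (edgeR adjusted p = 0.0035). With PBS liposomes the same scaling ended the calls of Icam2 (-0.54, adjusted p = 0.263) and Cd34 (-0.87, adjusted p = 0.0746). Those markers summed to 1857 to 1915 FPKM at low and 2826 to 3097 FPKM at high flow with IgG, and the 4 leukocyte genes to 290 to 379 FPKM and 14.3 to 17.2 FPKM. Smooth muscle genes summed to 2392 to 2621 FPKM and 266 to 433 FPKM there, and macrophage genes to 2029 to 2104 FPKM and 101 to 334 FPKM. With PBS liposomes the endothelial genes summed to 2159 to 2312 FPKM at low and 2622 to 2726 FPKM at high flow, and the leukocyte genes to 156 to 311 FPKM and 14.2 to 25.2 FPKM. Smooth muscle genes had 1792 to 3666 FPKM and 255 to 506 FPKM there, and macrophage genes 1374 to 2174 FPKM and 134 to 222 FPKM. Their part in these results was not tested.

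**Figure D3:**
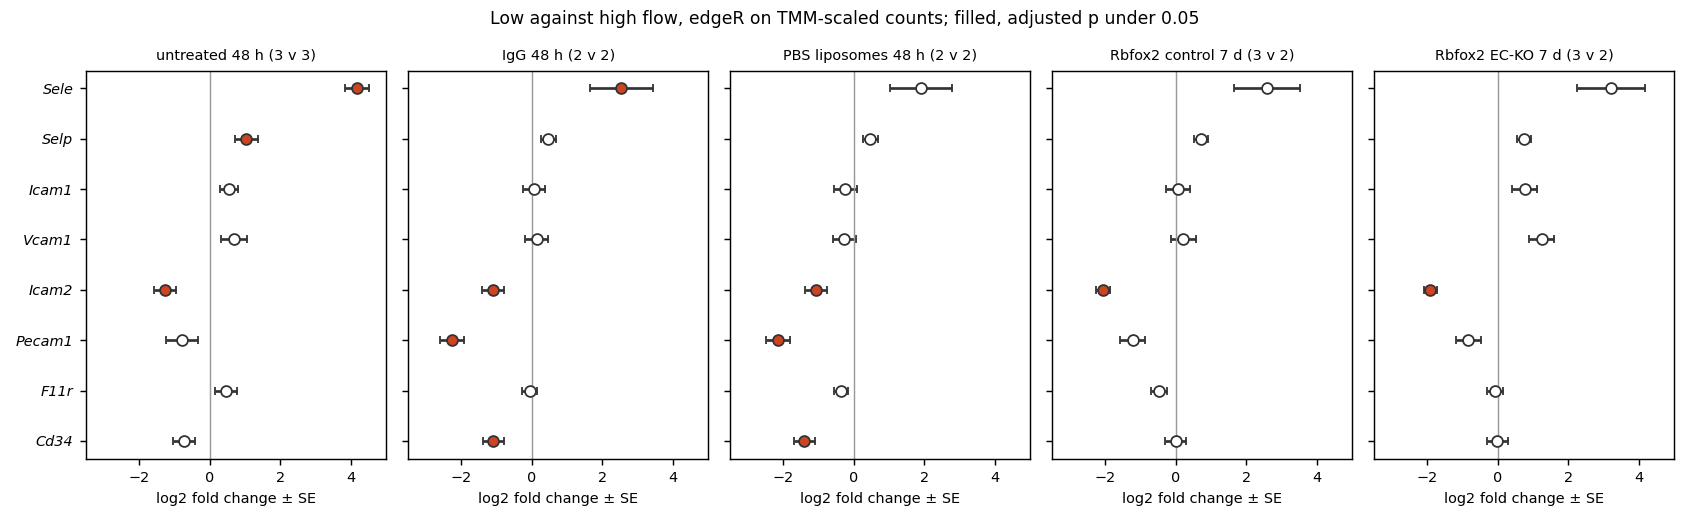
Log2 fold-change of the 8 genes at low against high flow in 5 sets of mice, with bars for 1 standard error and filled points for an edgeR adjusted p under 0.05. Icam2 is filled in each panel, between -2.06 and -1.07, and Sele lies to the right in each, between 1.91 and 4.17.

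Depletion of blood cells at low flow was compared with the matched control. Platelet and granulocyte depletion share the 2 IgG libraries, and the same IgG and PBS libraries served the flow comparisons. After anti-GPIba, Sele had 25.5 and 26.6 FPKM against 84.5 and 79.3 FPKM with IgG. The pairs were each tight and far apart, yet the log2 of -1.75 (standard error 0.87, edgeR adjusted p = 0.17) did not pass in the fit over 7 groups, while the same groups fitted alone gave -1.7 (adjusted p = 0.00152). Over its 11 alternatives the adjusted p ranged from 0.00152 to 0.404. Icam1 had 491 and 507 FPKM against 252 and 194 FPKM and rose by a log2 of 1.07 (standard error 0.32, adjusted p = 0.0449). Pecam1 had 1576 and 1546 FPKM against 690.2 and 456 FPKM and rose by 1.35 (standard error 0.33, adjusted p = 0.0304). Both calls were lost without any 1 of the 4 libraries, in fits that left 1 library in a group. Their log2 fold-changes were then 0.89 to 1.28 for Icam1 and 1.08 to 1.69 for Pecam1.

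After anti-GPIba, Selp had 567 and 576 FPKM (log2 0.44, edgeR adjusted p = 0.15) and Vcam1 922 and 771 FPKM (log2 0.59, adjusted p = 0.201), in each case above both IgG libraries. Icam2 had 402 and 391 FPKM, F11r 199 and 192 FPKM and Cd34 386 and 336 FPKM, with adjusted p from 0.434 to 0.792. In all, 2 of 8 genes passed, both higher, where 16.5% of 13401 genes did, 6.05% higher and 10.5% lower. Most of the calls over all genes were also lost without any 1 of these anti-GPIba or IgG libraries. Leukocyte markers summed to 16.1 to 34.9 FPKM after anti-GPIba against 290 to 379 FPKM with IgG, and smooth muscle markers to 400.3 to 566 FPKM against 2392 to 2621 FPKM. Platelet markers summed to 15.5 to 30.2 FPKM against 39.0 to 43.3 FPKM. Fibroblast markers, at 234 to 481 FPKM against 88.5 to 108 FPKM, and fat-cell markers, at 61.2 to 598 FPKM against 9.09 to 95 FPKM, lay on the side of Icam1 and Pecam1. The 12 endothelial markers summed to 2557 to 2704 FPKM against 1857 to 1915 FPKM, and with libraries scaled to them the log2 of Icam1 was 0.41 (adjusted p = 0.356) and that of Pecam1 0.7 (adjusted p = 0.0826), while F11r passed (-0.85, adjusted p = 0.0368). The part of the other cells in the rise of Icam1 and Pecam1 was not tested.

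After anti-Gr1, Icam1 had 485 and 503 FPKM, Pecam1 1091 and 1211 FPKM and Vcam1 1067 and 807 FPKM, each above both IgG libraries. Their log2 fold-changes were 1.09, 0.95 and 0.77, with edgeR adjusted p of 0.243, 0.243 and 0.259. Sele had 27.1 and 119 FPKM, a pair that enclosed the IgG values. EdgeR called 0 of 8 genes (3 by unadjusted p under 0.05), and DESeq2 called 1 (Icam1, adjusted p = 0.0499), where edgeR called 0.0% of 13401 genes (2432 before adjustment at p under 0.05, and 179 by DESeq2). The remaining genes, Selp, Icam2, F11r and Cd34, had log2 fold-changes from -0.21 to 0.1, with standard errors from 0.21 to 0.31. Neutrophil markers summed to 22.8 to 43.9 FPKM after anti-Gr1 and 109.5 to 396 FPKM with IgG, leukocyte markers to 136 to 155 FPKM and 290 to 379 FPKM, and fibroblast markers to 209.7 to 396 FPKM and 88.5 to 108 FPKM. Their part in these values was not tested.

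After clodronate liposomes, Pecam1 had 1357 and 705 FPKM against 444 and 378 FPKM with PBS liposomes. The pairs did not overlap, with a log2 of 1.25 (standard error 0.33, edgeR adjusted p = 0.164). It was 1.63 without clodronate replicate 2, a fit with 1 clodronate library. Cd34 had 483 and 397 FPKM against 195 and 285 FPKM (log2 0.8, adjusted p = 0.276), Icam1 509.6 and 294 FPKM against 302 and 163 FPKM (log2 0.71, adjusted p = 0.329) and Vcam1 1038 and 586 FPKM against 598 and 379 FPKM (log2 0.66, adjusted p = 0.36). Sele had 36.8 and 85.3 FPKM, against 126 and 73.7 FPKM. EdgeR called 0 of 8 genes (3 by unadjusted p under 0.05), and DESeq2 called 1 (Pecam1, adjusted p = 0.00444), where edgeR called 0.119% of 13401 genes (2002 before adjustment at p under 0.05, and 467 by DESeq2). In the single 100 bp libraries, which have no replicate, Pecam1 had 1023 FPKM with clodronate and 659 FPKM with PBS liposomes, Icam1 213 and 132 FPKM, Vcam1 865 and 604 FPKM, Cd34 373 and 250.3 FPKM and Sele 26.4 and 53 FPKM. Macrophage markers summed to 245 to 261 FPKM in the replicated clodronate libraries and 1374 to 2174 FPKM in those with PBS liposomes, leukocyte markers to 41.1 to 43.4 FPKM and 156 to 311 FPKM, and smooth muscle markers to 1462 to 1558 FPKM and 1792 to 3666 FPKM, and their part was not tested.

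**Figure D4:**
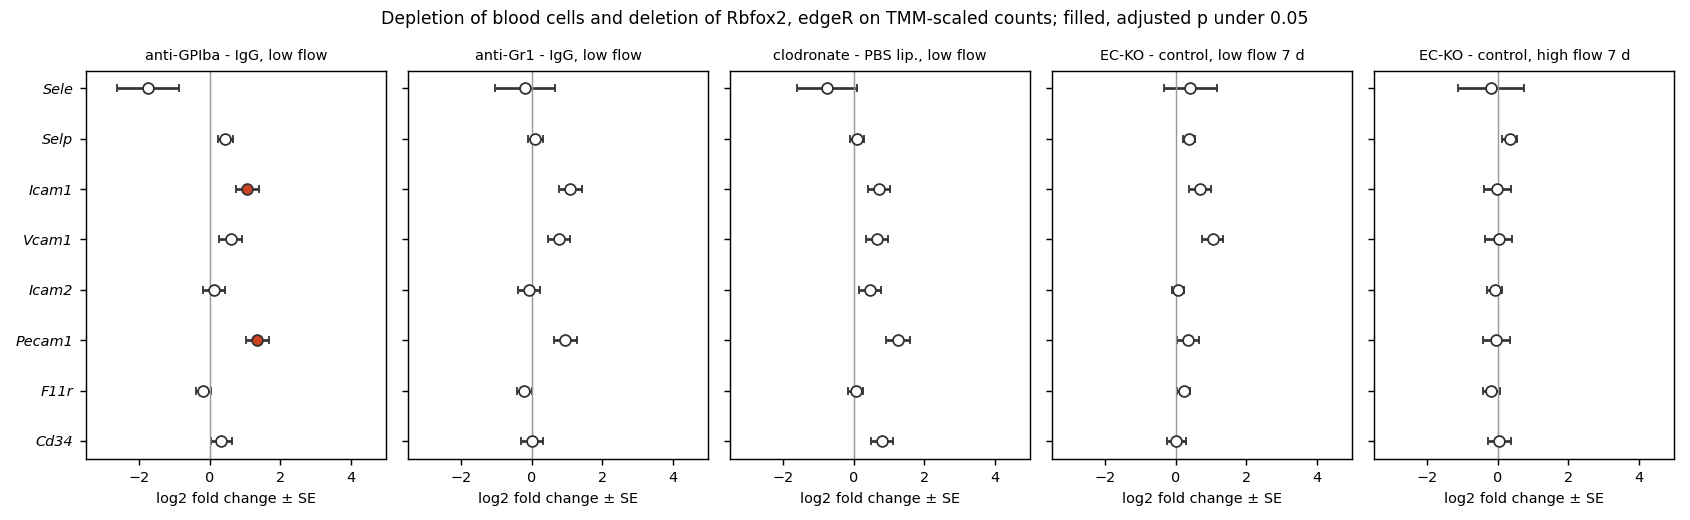
Log2 fold-change of the 8 genes after depletion of platelets, granulocytes or macrophages at low flow and after deletion of Rbfox2 at 7 days, with bars for 1 standard error and filled points for an edgeR adjusted p under 0.05. Filled points are Icam1 at 1.07 and Pecam1 at 1.35 after anti-GPIba.

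At 7 days the libraries were numbered 1, 4 and 5 in the table, replicate 1 of each low-flow group coming from the January run. Control library 5 and EC-KO library 4 at low flow came from an August run, and all high-flow libraries from the June run. Only 1 low-flow library per genotype shared a run with high flow, so that flow and run can be told apart by that library alone. Rbfox2, the deleted gene, had 2.41 to 4.73 FPKM in control and 0.157 to 0.962 FPKM in EC-KO libraries at low flow, with a log2 of -2.61 (standard error 0.58, edgeR adjusted p = 0.692). Icam2 passed the test for flow at this time in both genotypes. It had 218, 195 and 174 FPKM at low flow and 805 and 914 FPKM at high flow in controls, and 199.9, 194 and 237 FPKM against 789 and 814 FPKM in EC-KO mice. The low-flow libraries formed a narrow band far below the high-flow ones in both genotypes. Icam2 fell, with a log2 of -2.06 in controls (standard error 0.19, adjusted p = 0.00394) and of -1.91 in EC-KO mice (standard error 0.19, adjusted p = 0.00548). The control call was lost without high-flow library 5 (-1.98, adjusted p = 0.0683) and with the 2 groups fitted alone (-2.07, adjusted p = 0.136), and the EC-KO call without high-flow library 4 or 5 (adjusted p = 0.0789 and 0.066) and with endothelial marker scaling (-0.97, adjusted p = 0.0782). In the reported edgeR fit Icam2 was the only 1 of 8 to pass in either, where 2.4% of 13352 genes passed in controls and 1.09% in EC-KO mice. A fit that took the library numbers as blocks added calls in both genotypes, which are given with the alternatives at the end. DESeq2 called 4 of 8 in each, adding Selp (adjusted p = 2.4e-06), Sele (0.00985) and Pecam1 (0.00628) in controls and Selp (8.22e-07), Sele (0.00155) and Vcam1 (0.00563) in EC-KO mice, where it called 2224 and 965 of all genes.

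Markers of the cells in the intima also differed with flow at 7 days. In controls the 12 endothelial genes summed to 1326 to 1967 FPKM at low and 2944 to 2992 FPKM at high flow, and in EC-KO mice to 1725 to 2050 FPKM and 3126 to 3135 FPKM. The 7 smooth muscle genes summed to 632 to 912 FPKM and 138 to 186 FPKM in controls, the 11 macrophage genes to 273 to 1177 FPKM and 72.2 to 131 FPKM and the 4 leukocyte genes to 50.7 to 309 FPKM and 3.54 to 23.2 FPKM. In EC-KO mice the smooth muscle genes summed to 549 to 949 FPKM and 119.5 to 149.6 FPKM and the macrophage genes to 810.1 to 1512 FPKM and 92.0 to 102 FPKM. The leukocyte genes overlapped there, at 171 to 218 FPKM and 35.4 to 274 FPKM, and the 7 T and B cell genes were lower at low flow, at 3.97 to 15.2 FPKM and 18.1 to 163 FPKM. Scaled to the endothelial genes, the log2 in controls was -0.87 for Icam2 and -0.13 for Pecam1. The same scaling put 5 others past edgeR's threshold in controls, Sele at 3.99 (adjusted p = 0.0186), Selp at 1.92 (adjusted p = 0.0173), Icam1 at 1.19 (adjusted p = 0.0247), Vcam1 at 1.39 (adjusted p = 0.02) and Cd34 at 1.29 (adjusted p = 0.0457). In EC-KO mice 3 genes passed with it, Selp at 1.67 (adjusted p = 0.0397), Icam1 at 1.68 (adjusted p = 0.0489) and Vcam1 at 2.16 (adjusted p = 0.0339). That scaling moved the median of all genes by 1.21 in controls, where edgeR called 6395 of all genes, and by 0.92 in EC-KO mice. The part of these cells in the flow differences was not tested.

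Sele had 14.7, 58.7 and 54 FPKM at low and 2.42 and 12.7 FPKM at high flow in controls, and 36.2, 111 and 29.9 FPKM against 2.89 and 10 FPKM in EC-KO mice. Low-flow libraries were above high-flow libraries in both genotypes, control library 1 by the smallest margin. The log2 was 2.59 in controls (standard error 0.94, edgeR adjusted p = 0.128) and 3.21 in EC-KO mice (standard error 0.97, adjusted p = 0.153), and without control library 1 it was 3.01 (adjusted p = 0.0292). Selp had 476, 396 and 437 FPKM at low and 283 and 278 FPKM at high flow in controls, and 570.3, 585 and 576 FPKM against 338 and 361 FPKM in EC-KO mice. Its log2 of 0.71 (adjusted p = 0.0678) and 0.74 (adjusted p = 0.107) did not pass, and without control library 1 the first was 0.66 (adjusted p = 0.00971). Pecam1 had 1387, 529.7 and 756 FPKM at low and 2040 and 2296 FPKM at high flow in controls, and 1245, 1157 and 1049 FPKM against 1979 and 2199 FPKM in EC-KO mice. Control library 1 was the highest of the low-flow libraries, and without it the log2 of Pecam1 in controls went from -1.22 (adjusted p = 0.0752) to -1.67 (adjusted p = 0.000712). In EC-KO mice its log2 was -0.84 (adjusted p = 0.285). Icam1 and Vcam1 overlapped between flows in controls, with log2 fold-changes of 0.05 and 0.21 (adjusted p = 0.944 and 0.737). In EC-KO mice their low-flow libraries lay above the high-flow ones, with 0.76 and 1.24 (adjusted p = 0.333 and 0.138). F11r had a log2 of -0.48 in controls (adjusted p = 0.197) and -0.08 in EC-KO mice (adjusted p = 0.895), and that of Cd34 was 0.0 (adjusted p = 0.998) and -0.02 (adjusted p = 0.98).

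Between EC-KO and control at low flow, Vcam1 was the gene of the set that stood farthest apart. It had 1362, 931 and 980.1 FPKM in EC-KO and 646, 341 and 563 FPKM in control libraries, with a log2 of 1.04 (standard error 0.31, edgeR adjusted p = 0.692). Every EC-KO library was above every control library. Without control library 1 the log2 was 1.22 (adjusted p = 0.0382), the only pass in 14 alternatives. Selp was also above in every library, with a log2 of 0.36 (standard error 0.17, adjusted p = 0.692). Icam1 had 526, 298 and 356 FPKM in EC-KO and 330.1, 161 and 228 FPKM in control libraries, which overlap (log2 0.68, adjusted p = 0.692). Pecam1 had a log2 of 0.34 (adjusted p = 0.772), which was 0.79 (adjusted p = 0.0291) without control library 1, its only pass in 14 alternatives. In fits without 1 library, edgeR called 0 to 1476 of all genes between genotypes at low flow. Cd34, with 430.4, 397 and 501 FPKM in EC-KO and 363, 319.9 and 603 FPKM in control libraries, had a log2 of 0.01.

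EdgeR called 0 of 8 genes between genotypes at low flow, with 1 at an unadjusted p under 0.05 and 0 with DESeq2, where it called 0.0% of 13352 genes (880 before adjustment at p under 0.05, and 16 by DESeq2). Fibroblast markers summed to 419 to 1504 FPKM in EC-KO and 114 to 370.2 FPKM in control low-flow libraries, macrophage markers to 810.1 to 1512 FPKM and 273 to 1177 FPKM and neutrophil markers to 4.53 to 14.1 FPKM and 11.3 to 176 FPKM. Their part in these values was not tested. At high flow, Vcam1 had 346 and 592 FPKM in EC-KO and 388 and 548 FPKM in control libraries, and edgeR called 0 of 8 genes (0 by unadjusted p under 0.05), and DESeq2 called 0, where edgeR called 0.00749% of genes (293 before adjustment at p under 0.05, and 29 by DESeq2). The difference between genotypes in the effect of flow was 1.03 for Vcam1 (standard error 0.49, edgeR unadjusted p = 0.0619, adjusted p = 0.986) and 0.7 for Icam1 (standard error 0.49, adjusted p = 0.986). In this test edgeR called 0 of 8 genes (0 by unadjusted p under 0.05), and DESeq2 called 0, where edgeR called 0.0% of 13352 genes (538 before adjustment at p under 0.05, and 21 by DESeq2).

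Over the 14 carotid groups of 2 or 3 libraries, the genes ranked the groups in different orders. Sele ran from a mean of 100.0 FPKM at low flow with PBS liposomes to 3.01 FPKM at high flow untreated, a ratio of 33.3, and only 1 of 13 neighbours in that order lay apart. Selp ran from 577 FPKM in EC-KO mice at low flow to 199 FPKM at high flow untreated, with 5 of 13 neighbours apart. Icam2 ran from 1488 FPKM at high flow untreated to 196 FPKM in 7 day controls at low flow, and Pecam1 from 2986 FPKM at high flow with IgG to 411 FPKM at low flow with PBS liposomes, each with 3 of 13 neighbours apart. Cd34 ran from 699.5 to 240 FPKM and F11r from 471 to 159 FPKM, each with 1 of 13 apart. Icam1, from 499 to 199 FPKM, and Vcam1, from 1162 to 468 FPKM, had 0 of 13 neighbours apart. These orders cross runs and read lengths, and differences between runs were not tested.

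The cultures had 1 library each and no replicate, so values are given without a test. In primary cells sorted on eGFP, Cd34 was the highest of the set at 1289 FPKM, Vcam1 had 944 and Icam2 802 FPKM, and Sele 38.4 FPKM. In primary cells of the Rbfox2 control, which were sorted on CD31 and ICAM-2, the proteins of Pecam1 and Icam2, Sele had 121 FPKM, Icam1 553 FPKM, Vcam1 331 FPKM and Cd34 1344 FPKM. After deletion of Rbfox2, which had 0.601 FPKM against 8.59 FPKM, these were 132, 461, 243 and 1258 FPKM. Between the same libraries macrophage markers summed to 46.4 FPKM in the EC-KO and 363 FPKM in the control, fibroblast markers to 87.8 and 31.0 FPKM and smooth muscle markers to 2465 and 3206 FPKM, and their part was not tested. Pecam1, at 320.2 to 348 FPKM in the 3 primary cultures, lay below all 35 carotid libraries, of which the lowest had 378 FPKM, and Cd34 above all, of which the highest had 729 FPKM. Scaled by total counts alone, Pecam1 no longer lay below all, with 391 FPKM in the EC-KO culture and 386 FPKM in the lowest carotid library.

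Most of the 8 genes were low in the cell line. Untreated, Sele had 0.484 FPKM, from 26 counts (95% Poisson interval 0.316 to 0.71, counting error only), Icam1 12.4, Icam2 23.9, Pecam1 41.6 and Cd34 49.6 FPKM. Vcam1, at 703 FPKM, lay inside the carotid range and F11r, at 107 FPKM, just below it. Cdh5 had 100 to 362 counts and Tie1 55 to 157 counts in the 4 cultures, against 607 to 3837 and 833 to 17411 counts in the carotid libraries, so the defining endothelial transcripts were low in this line. With 10% plasma, Selp had 71.8 FPKM against 25.9 FPKM untreated and Cd34 189 against 49.6 FPKM. With platelets and macrophages these were 41.8 and 72.4 FPKM, and with all 3 additions 93.7 and 27.3 FPKM. Vcam1 had 643 FPKM with plasma, 1015 FPKM with platelets and macrophages and 345 FPKM with all 3, and Sele reached 2.42 FPKM with all 3. Platelet markers summed to 1.85 FPKM untreated, 3.54 FPKM with plasma, 12.9 FPKM with platelets and macrophages and 19.6 FPKM with all 3, and macrophage markers to 21.5, 41.1, 319.7 and 219.6 FPKM. The part of the added cells in the level of Selp was not tested.

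**Figure D5:**
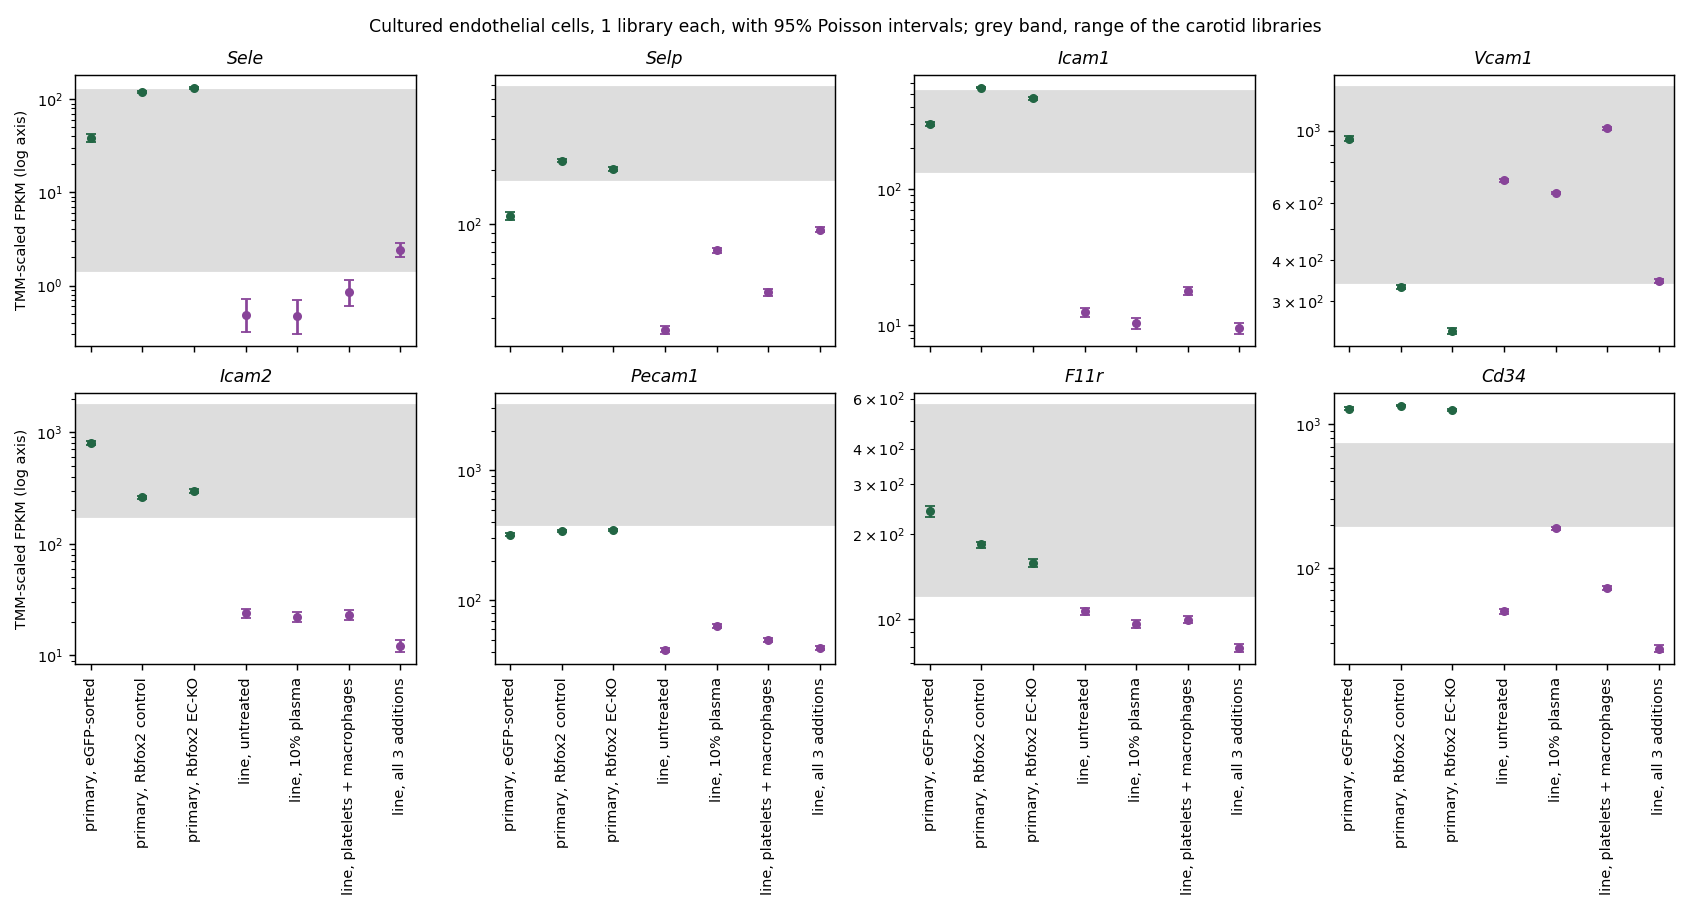
TMM-scaled FPKM of the 8 genes, on a log axis, in 3 primary cultures and 4 cultures of the cell line, with 1 library each, bars for 95% Poisson intervals of the counts and a grey band for the range of the carotid libraries. Sele, Icam1 and Icam2 lie far lower in the line than in primary cells, whereas Vcam1 stays between 345 and 1015 FPKM.

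Other genes of the adhesion cascade were counted in lists. Of 18 other endothelial adhesion genes tested at low against high flow untreated, 7 rose and 7 fell, where 23.6% of all genes rose and 22.6% fell, a median log2 of 0.56 against -0.07 over all genes. Emcn (endomucin, a sialomucin of venous and capillary endothelium) rose by 2.14 and Mcam (CD146) by 2.1, whereas Bcam, a laminin receptor (-3.15), and Icam4 (-3.24) fell, the last at 0 to 1.25 FPKM at low flow. Of 17 ligands and receptors carried by leukocytes and platelets, 11 rose and 2 fell, against the same shares of all genes, with a median of 2.43. Cd177, a neutrophil partner of PECAM-1, had no counts in any high-flow pool, and against a floor of 3 counts per library its low-flow level was at least 38.3-fold higher. The integrin subunit Itga9 (-2.64) and the platelet receptor Gp1ba (-1.27) fell.

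Beside the same shares of all genes, 23.6% higher and 22.6% lower, the remaining lists were as follows. Of 8 genes that build the sugars of selectin ligands, 0 rose and 2 fell, the sialyltransferases St3gal6 (-1.64) and St3gal3 (-1.03). Of 12 cytoplasmic partners and sheddases, 3 rose and 0 fell, among them Adam8, a sheddase of leukocytes, by 5.62 and Msn (moesin, which links ICAM-1 to actin) by 2.29. Of 16 transcription factors known for these promoters or for flow, 2 rose and 7 fell. Ets1 rose by 1.66 and the NF-kB subunit gene Nfkb2 by 1.24, and the flow-induced factors Klf2 (-4.28) and Klf4 (-4.21) fell. Without pools a and b, chosen after seeing the data, edgeR called 14.2% of all genes higher and 8.21% lower. The counts were then 6 higher and 6 lower of 19 other endothelial genes, 10 and 2 of 17 ligands, 0 and 2 of 8 sugar-building genes, 2 and 0 of 12 partners and sheddases and 2 and 4 of 16 factors, and of the genes named here St3gal3 no longer passed (-0.91, adjusted p = 0.245). With total-count scaling, where 9.29% of all genes were higher and 27.4% lower, the counts were 3 and 7, 10 and 4, 0 and 4, 2 and 1 and 1 and 8 in the same order, and Nfkb2 no longer passed (0.65, adjusted p = 0.346). After anti-GPIba 1 of 17 leukocyte and platelet ligands rose and 9 fell, and 4 of 16 factors rose and 0 fell, where 6.05% of all genes rose and 10.5% fell. Most calls over all genes in that comparison were lost without any 1 library, and the lists were not counted again under alternatives.

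The genes whose levels followed each member most closely over the 35 carotid libraries were named by correlation of log2 values across 11377 genes, as a description. For Sele these were Actr3 and Dpysl3 (each r = 0.91) and Myc (0.9). For Selp they were Stx11 (0.86), St3gal5 and Txndc5 (each 0.84). Icam1 was followed by Apoe and H2-Q6 (each 0.77) and Daglb (0.76), and Vcam1 by Ifngr1 (0.87), Bmp4 (0.77) and Ephx2 (0.76). Icam2 was followed by Pqlc1 and Mfap5 (each 0.94) and Hyal2 (0.92), Pecam1 by Peg13, Rbms2 and Aldh2 (each 0.92), F11r by Dazap2 (0.94), Prr13 (0.93) and Cd81 (0.91), and Cd34 by Pqlc3 (0.84), Nqo1 and Pmp22 (each 0.83). Without TMM scaling, 11 of these 24 genes stayed among the 3 closest. Among the 8 themselves, Sele had r = 0.64 with Selp, 0.25 with Icam1, 0.19 with Vcam1, -0.71 with Icam2 and -0.74 with Pecam1, and Pecam1 had 0.73 with Cd34. The libraries share flow groups, runs and scaling, so that these values follow the design as well as the genes.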

How the data were processed

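The authors mapped the reads to mm9 (STAR 2.5.1b and RSEM 1.2.15 in the submitters' processing notes, TopHat in the methods for the untreated pools) and deposited 1 table of RSEM expected counts per gene and library, not normalized, of which 5.2% to 19.3% were not whole, with an effective length in bases and, for some libraries, RPKM normalized by the authors. The table has 204 columns of values, of which 67 entered and 137 did not, and 1 of 21675 rows was left out for a missing name or values. Libraries were made by SMARTer low-input amplification, so counts include PCR copies. The methods give a first-strand library setting for the mapping of the untreated pools.

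Counts were rounded and tested with edgeR 4.0.16 in R 4.3.3 (default filter, TMM, quasi-likelihood test, Benjamini-Hochberg adjustment over all genes tested, adjusted p under 0.05). The untreated comparisons were fitted on their own groups, the 7 treated groups together and the 4 groups of 7 days together. FPKM came from counts, effective length, library total and a TMM factor estimated over all 42 libraries, and without that factor the median ratio to the deposited RPKM was 0.928 to 1.03 in 25 libraries. Alternatives were DESeq2 1.42.0, RLE, total-count and endothelial marker scaling, no filter, other fits, a replicate block and each library left out. Tables and figures used Python 3.11.15, and scripts were first tested on simulated counts.

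The members and lists were chosen with earlier results of these data known. The genes named from a list are those with the largest log2 fold-change in each direction past the threshold between low and high flow untreated, at most 2 each, of which 1 is not reported here, and likeness names the 3 genes with the highest Pearson correlation over log2(CPM + 1), with a mean of at least 1 FPKM. The labels tie no library to single mice. Columns of the untreated pools carry letters, and those of 7 days the numbers 1, 4 and 5.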

Additional observations from a re-analysis of the deposited data

How the results depend on the processing

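Of 1288 values of single genes under the alternatives, 1166 kept their side of the threshold with no reversal of a called value, 67 passed only under the alternative, 52 passed only in the reported fit and 3 reversed. The 3 that reversed were low against high flow with IgG under endothelial marker scaling, at 0.15 for Icam2, 1.19 for F11r and 0.15 for Cd34, where that scaling moved the median of all genes by 1.24. Of these only F11r was past the threshold under that scaling (edgeR adjusted p = 0.0035). The cause of the other moves was not tested.

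The number of the 8 genes called moved as follows. For low against high flow untreated, 3 became 7 with DESeq2, which called 4884 of all genes, and 2 to 7 with 1 pool left out, and against sham 3 became 0 without pools a and b and 1 to 4 with 1 pool left out. High flow against sham gave 0 to 1 with 1 pool left out. With 1 library left out, IgG gave 1 to 4 (from 4), PBS liposomes 1 to 3 (from 3), anti-GPIba 0 (from 2), anti-Gr1 0, clodronate 0 to 1 and EC-KO against control at low flow 0 to 2 (from 0). Anti-GPIba gave 1 with endothelial marker scaling, which was F11r (-0.85, adjusted p = 0.0368) in place of both reported calls, and DESeq2 gave 1 for anti-Gr1 and 1 for clodronate. In 7 day controls 1 became 4 with DESeq2, 6 with endothelial marker scaling, 0 with the 2 groups alone, 4 without the January run and 0 to 4 with 1 library left out. In EC-KO mice 1 became 4, 3, 5, 3 and 0 to 1 in the same order. EC-KO against control at high flow and the interaction gave 0 with any 1 library left out.

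Over all genes, the calls ranged over the alternatives from 2731 to 5682 (5195 as reported) for low against high flow untreated, 0 to 4868 (4499) against sham, 0 to 106 (0) for high flow against sham, 5105 to 8124 (5422) with IgG, 4551 to 5478 (4692) with PBS liposomes, 2168 to 4597 (2216) for anti-GPIba, 0 to 225 (0) for anti-Gr1, 0 to 467 (16) for clodronate, 3 to 6395 (320) and 132 to 1317 (146) for flow at 7 days in controls and EC-KO mice, 0 to 374 (0) and 0 to 29 (1) for genotype at low and high flow and 0 to 21 (0) for the interaction. These ranges leave out the fits without 1 library. Without 1 pool, edgeR called 4151 to 5411 genes for low against high flow untreated, 2513 to 4757 against sham and 0 to 78 for high flow against sham. Without 1 library it called 0 to 1476 for genotype at low flow. Such calls fell below the ranges given for IgG, PBS liposomes, anti-GPIba and flow in EC-KO mice, and reached above that for clodronate. With a replicate block, 4 of the 8 genes were called in 7 day controls and 5 in EC-KO mice, adding Sele (adjusted p = 0.0339 and 0.0309), Selp (0.0314 and 0.0427) and Pecam1 (0.00709 and 0.039) in both and Vcam1 (0.0196) in EC-KO mice, and Sele passed with PBS liposomes (2.42, adjusted p = 0.0266). High-flow arteries are contralateral to ligated ones, but no source used here ties a pool to the mice of the pool with the same number. Deviations of low-flow and high-flow libraries of equal number correlated at 0.0369 with IgG, 0.452 with PBS liposomes, 0.228 in 7 day controls and -0.0356 in EC-KO mice, over 2 pairs each, so whether the numbers pair the libraries was not settled. No paired analysis was possible because of letters in place of numbers in the columns of the untreated pools, and of those alone. The second run of those 9 pools was not run as an alternative. The settings without the January run and without pools a and b were chosen after seeing the data. Groups of 2 or 3 libraries limit the precision, and depth limits Sele, which had 14 to 75 counts in high-flow untreated pools.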
